A study of Mus musculus with 4 samples.

Results

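Mmp12, Fn1, Lpl, Lipa, Cd36, Scarb1, Msr1, Cd68 and Adgre1 are 9 macrophage-type genes. Adgre1 is a surface marker. Macrophages use the others to degrade or lay down matrix, to take up and digest lipid, and to bind modified particles. The 9 genes were read here by 13 probe sets, found by gene symbol in the platform annotation, of 12654 probe sets and 8220 named genes in all. The cells were mouse dendritic cells differentiated in culture. The 4 groups were the dendritic cell progenitor grown out of bone marrow, cells at day 7 and at day 10 of differentiation, and day 10 cells given tumour necrosis factor (TNFalpha) for 16 hours. Each group was 1 array of total RNA, so no spread between replicates exists and no test was made. The labels give no strain, age, genotype or medium, and do not say how many mice or cultures stand behind an array.

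Macrophages clear lipoproteins, dying cells and matrix fragments. Scavenger receptors bind oxidised lipoproteins and other altered ligands at the surface, lipases free the fatty acids and cholesterol they carry, and secreted proteases open the surrounding matrix. Several of these genes are also transcribed in dendritic cells and granulocytes, so none of them alone marks a macrophage. In pooled RNA from a culture, fewer cells of a type and less RNA per cell cannot be told apart.

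Levels are scaled intensities in arbitrary units. On each array 22.8% to 24.3% of probe sets had a value below 0, so 2 floors were used: 105 units (the 40th percentile of all values) for counts of genes and 428 units (the 60th) for folds of single genes. A fold against a value under 428 units is written as "at least", and no fold is given where both values lie under it. The yardstick for error was how far the 2 brightest probe sets of one gene disagree, an SD of 0.83 on the log2 scale (1.78-fold) for day 7 against progenitor over 671 genes, 0.85 (1.81-fold) for day 10 against day 7 and 0.73 (1.66-fold) for TNF against day 10. Only genes with both probe sets above 105 units on both arrays entered it. Lpl and Cd68, each with 1 probe set under that floor, did not. Nor did Mmp12 and Msr1 for day 7 against progenitor, as their second probe sets read 90 and 19 units in the progenitor. The yardstick measures the probes and says nothing of the spread between cultures.

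The labelled cell types were checked against markers. Of 13 measured dendritic cell markers, 3 lay above 428 units in the progenitor and 12 on each later array; Zbtb46 was under 105 units on all 4. Of 13 measured macrophage markers other than Adgre1 and Cd68, 5 lay above 428 units in the progenitor and 6 on each later array. The ones under it on every later array were Maf, C1qa, C1qb, C1qc, Siglec1, Vcam1 and Cd5l. The summed level of all 13 macrophage markers was 7282 units in the progenitor, 19573 at day 7, 27207 at day 10 and 21807 with TNF. The 13 granulocyte markers summed to 231042, 134124, 160598 and 18658 units in the same order, so the TNF array held far less granulocyte signal than the other 3.

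Of the 9 genes, 4 had an entry in the RefSeq promoter table (build GRCm38.p6), with 5 start sites between them. The 250 bases before the start site are shown for the 3 of these genes that lay above 428 units and were brighter at day 7 than in the progenitor. Capitals mark matches, on either strand, to 4 motifs. The PU.1 core, bound by an Ets factor that myeloid cells depend on, was searched as GAGGAAGT. The shorter Ets core that lies within it was searched as GGAAGT. The motif of AP-1, a factor made of Fos and Jun proteins, was searched as TGANTCA. The box that binds the general transcription machinery near many start sites was searched as TATAAA. Coordinates are those of the printed bases, at chr9:7344147-7344396 (plus strand) and chr9:7347124-7347373 (plus strand) for the 2 start sites of Mmp12, chr19:34527475-34527724 (minus strand) for Lipa and chr11:69666171-69666420 (minus strand) for Cd68. Each sequence reads 5′ to 3′ toward the start site.
Mmp12, start site 1: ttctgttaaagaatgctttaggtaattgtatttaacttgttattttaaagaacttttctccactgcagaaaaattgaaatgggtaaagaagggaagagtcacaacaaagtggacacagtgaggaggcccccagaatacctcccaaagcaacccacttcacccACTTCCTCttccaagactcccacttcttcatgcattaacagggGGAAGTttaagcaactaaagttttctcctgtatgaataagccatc
Mmp12, start site 2: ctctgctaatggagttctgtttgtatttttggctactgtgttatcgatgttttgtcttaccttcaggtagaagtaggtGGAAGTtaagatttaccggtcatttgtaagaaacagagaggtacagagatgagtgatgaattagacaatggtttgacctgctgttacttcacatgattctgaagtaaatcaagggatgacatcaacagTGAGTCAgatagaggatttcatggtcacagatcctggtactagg
Lipa: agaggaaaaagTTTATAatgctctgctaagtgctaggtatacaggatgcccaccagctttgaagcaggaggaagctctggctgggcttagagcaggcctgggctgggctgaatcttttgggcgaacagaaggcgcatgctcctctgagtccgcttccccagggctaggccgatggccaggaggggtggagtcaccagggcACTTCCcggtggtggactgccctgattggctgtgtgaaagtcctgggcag
Cd68: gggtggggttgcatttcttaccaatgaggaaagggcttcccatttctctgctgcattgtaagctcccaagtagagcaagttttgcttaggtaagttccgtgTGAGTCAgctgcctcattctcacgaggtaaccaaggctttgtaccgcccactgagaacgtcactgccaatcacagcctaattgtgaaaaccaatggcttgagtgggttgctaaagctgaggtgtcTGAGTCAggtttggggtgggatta

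The PU.1 core is present at 1 of these start sites, the first of Mmp12, where the match begins 88 bases before the start; 2.44% of the 32851 windows of the same length in the table hold it. The AP-1 letters begin 44 bases before the second Mmp12 start and 149 and 24 bases before the Cd68 start, against 6.75% of all windows. The short Ets core is in both Mmp12 windows and that of Lipa, as it is in 19.7% of all. The TATA letters occur in the Lipa window, 239 bases before the start, and in 12.4% of all. The Cd36 window, not printed, holds 1 short Ets core and none of the other 3. These are matches of letters, and the arrays do not show which start site was used.

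**Figure D1:**
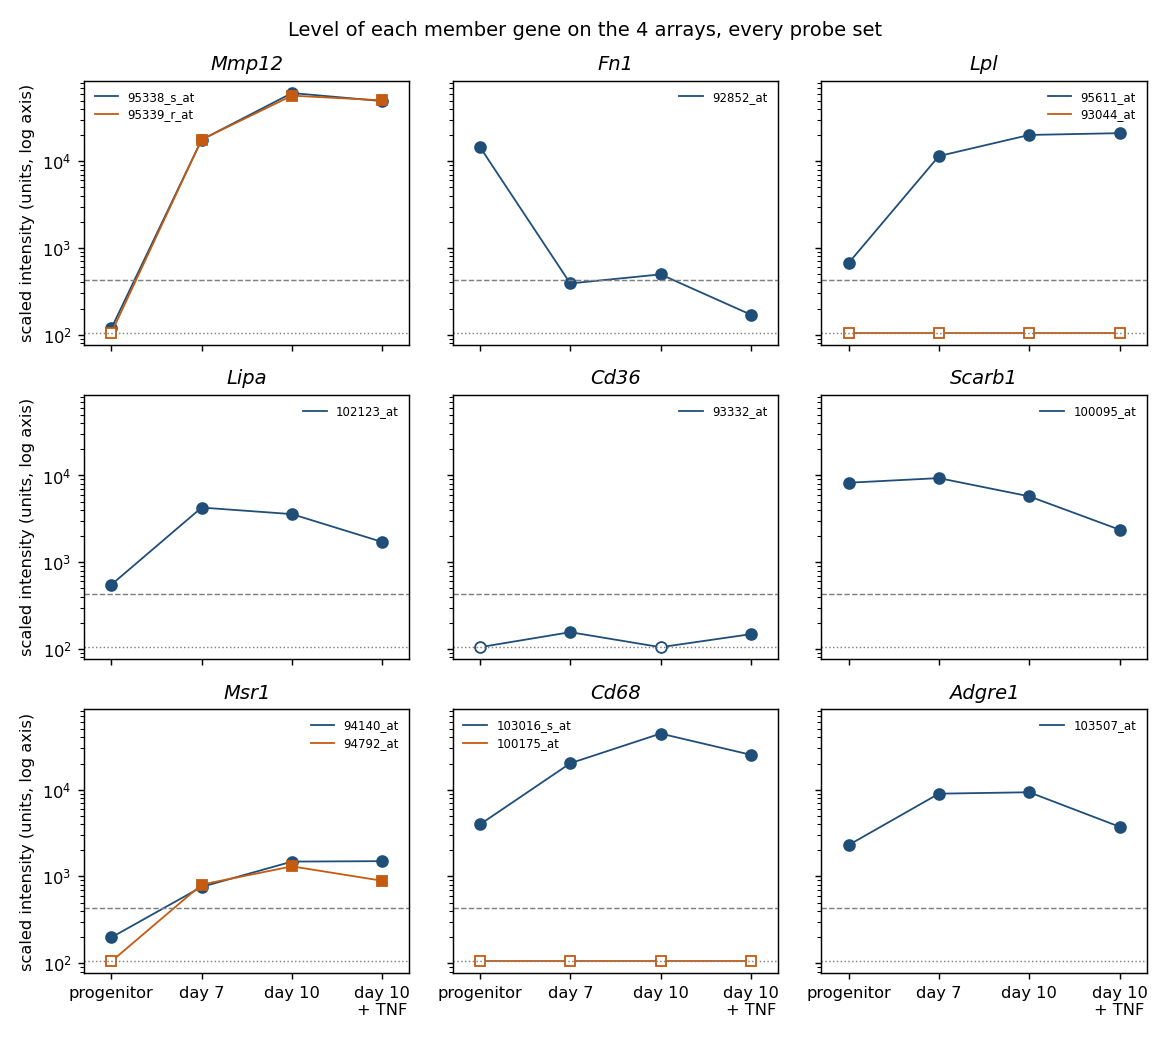
Scaled intensity (log axis, arbitrary units) of all 13 probe sets of the 9 genes on the 4 arrays, 1 point per array with lines only to guide the eye; open points lie at or under the floor of 105 units (dotted line) and are drawn on it, and the dashed line is 428 units. Mmp12 goes from 118 units in the progenitor to 61180 at day 10, Fn1 from 14592 to 390 units at day 7, and the second probe sets of Lpl and Cd68 stay on the floor throughout.

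The matrix genes Mmp12 and Fn1 moved furthest between progenitor and day 7, in opposite directions. Mmp12 encodes macrophage elastase, a secreted metalloprotease that cleaves elastin. Its level was 118 units in the progenitor, 17697 at day 7, 61180 at day 10 and 49379 with TNF. It was thus near the noise in the progenitor and bright on all 3 later arrays. A second probe set read 90, 17785, 57073 and 50366 units. Their suffixes, _s_at and _r_at, mark a set that can match more than 1 transcript and one chosen under relaxed rules. The pair was designed to the same sequence entry and so is not an independent check of the gene. At day 7 Mmp12 exceeded the progenitor by a factor of at least 41.3, and by at least 142.9 at day 10. Its log2 ratio at day 7, with the floor of 105 units, ranked 2 from the top of 5957 genes.

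Fn1 encodes fibronectin, the adhesive matrix glycoprotein that cells bind through integrins. It was at 14592 units in the progenitor, 390 at day 7, 496 at day 10 and 170 with TNF. Its signal was confined to the progenitor among these 4 arrays, apart from a day 10 value just above 428 units. The log2 ratio at day 7 was -5.23 with the floor of 105 units, rank 2 from the bottom of 5957 genes, and day 10 stood 29.4-fold under the progenitor. Of 12 measured stromal cell markers, which were set beside Fn1 because fibroblasts secrete fibronectin, 1 lay above 428 units in the progenitor. That was Col6a1, at 905 units, and it was still at 660 at day 7. The collagen genes Col1a1, Col1a2 and Col3a1 were at 234, -290 and 67 units in the progenitor.

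The lipase genes Lpl and Lipa were both higher at day 7. Lpl encodes lipoprotein lipase, which releases fatty acids from triglyceride-rich lipoproteins outside the cell. It was at 670 units in the progenitor, 11472 at day 7, 20101 at day 10 and 21081 with TNF, so that the 2 day 10 arrays were alike and the progenitor the lowest. Day 10 was 30.0-fold over the progenitor. A second Lpl probe set gave -133, -138, -69 and 33 units, under the floor on every array. The Lpl values above therefore rest on the brighter probe set alone. Which of the pair reads the Lpl transcript was not tested.

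Lipa encodes lysosomal acid lipase, which hydrolyses the cholesteryl esters and triglycerides of lipoproteins after uptake. It was at 550 units in the progenitor, 4266 at day 7, 3584 at day 10 and 1710 with TNF. Day 7 and day 10 differed by 1.19-fold, less than the 1.81-fold disagreement between probe sets. With TNF it was 2.10-fold lower than at day 10 and still above the progenitor.

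Of the 4 scavenger receptors, Cd68 and Msr1 were higher after differentiation, Scarb1 was bright from the start, and Cd36 was not measurable. Cd68 encodes macrosialin, a heavily glycosylated protein of late endosomes and lysosomes. It was at 3976 units in the progenitor, 20168 at day 7, 44389 at day 10 and 25262 with TNF. Day 7 was 5.07-fold and day 10 11.2-fold over the progenitor. These values come from a probe set with the suffix _s_at, given to probe sets that can match more than 1 transcript. Another Cd68 probe set read -44, -72, -53 and -35 units, so the gene rests on 1 probe set.

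Msr1 encodes the class A scavenger receptor, which binds modified low-density lipoprotein. It was at 198 units in the progenitor, 757 at day 7, 1483 at day 10 and 1500 with TNF. A second probe set, designed to another sequence entry, read 19, 805, 1306 and 891 units. Both sets were lowest in the progenitor and highest on 1 of the 2 day 10 arrays. Day 7 was at least 1.77-fold and day 10 at least 3.46-fold over the progenitor. With the floor of 105 units the log2 ratios of the pair at day 7 were 1.94 and 2.94, and with that of 428 units 0.82 and 0.91.

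Scarb1 encodes SR-BI, the receptor for high-density lipoprotein, a relative of Cd36. It was at 8248 units in the progenitor, 9324 at day 7, 5749 at day 10 and 2371 with TNF. The first 2 arrays differed by 1.13-fold, within the probe disagreement, and the TNF array was the lowest. Cd36, the fatty acid translocase and class B scavenger receptor, was at 63, 156, -37 and 148 units. All 4 values lie under 428 units and no fold is given. Its 1 probe set cannot show whether the transcript was absent: the second probe sets of Lpl and Cd68 were as dim while their partners were bright.

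Adgre1 encodes an adhesion-type receptor, the classic surface marker of mouse macrophages. It was at 2301 units in the progenitor, 8999 at day 7, 9345 at day 10 and 3741 with TNF. The day 7 and day 10 values differed by 1.04-fold, both other arrays were lower, and the TNF array lay nearest to the progenitor.

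Counted at 2-fold with the floor of 105 units, 6 of the 9 genes were higher at day 7 than in the progenitor and 1, Fn1, was lower. Over all genes 13.4% were higher and 11.9% lower. The median log2 ratio of the 9 was 1.97, against -0.04 over the 5957 genes above the floor. With the floor of 428 units 5 of 8 were higher, Msr1 no longer among them, and 1 lower, where 10.5% and 9.72% of all genes were. The genes were chosen with these results known, so the counts describe them and test nothing.

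From day 7 to day 10 the differences were smaller than those at day 7 for the genes above 428 units other than Msr1 and Scarb1. Mmp12 was 3.46-fold higher and Cd68 2.20-fold, and 0 were lower, against 11.2% of all genes higher and 8.44% lower. Msr1 and Lpl were 1.96-fold and 1.75-fold higher, Scarb1 1.62-fold lower, and Lipa and Adgre1 differed by less than 1.2-fold. Both of the genes counted are bright, and bright probe sets read higher on the day 10 array. In successive 2-fold steps of rising brightness, probe sets other than controls had median log2 ratios of 0.13, 0.26 and 0.92 between day 10 and day 7. The 9 spiked bacterial control probe sets had a median of 1.5 (range 1.2 to 1.77). After quantile normalization, which gives all arrays one distribution, the log2 ratio of Mmp12 was 0.57 in place of 1.79 and that of Cd68 was -0.30 in place of 1.14. The direction of Cd68 between these 2 days therefore depends on the scaling. Msr1, of middling brightness, had 0.97 and 1.0, so that 1 gene, Msr1, reached 2-fold after quantile normalization, where 9.49% of all genes did. At 3-fold Mmp12 alone was counted, beside 4.7% of all genes. How far the array contributes to these differences was not tested.

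Day 10 against the progenitor, a comparison that shares its arrays with the 2 before, had 6 of 8 genes above the floor higher and 1 lower, where 20.4% of all genes were higher and 16.8% lower. The median was 2.80, against 0.07 over all genes. The spiked controls had a median of 1.18 in this comparison (range 0.68 to 1.43). Quantile normalization left log2 ratios of 6.55 for Mmp12, 4.58 for Lpl, 2.92 for Cd68, 2.58 for Lipa, 1.88 for Adgre1 and -5.20 for Fn1.

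**Figure D2:**
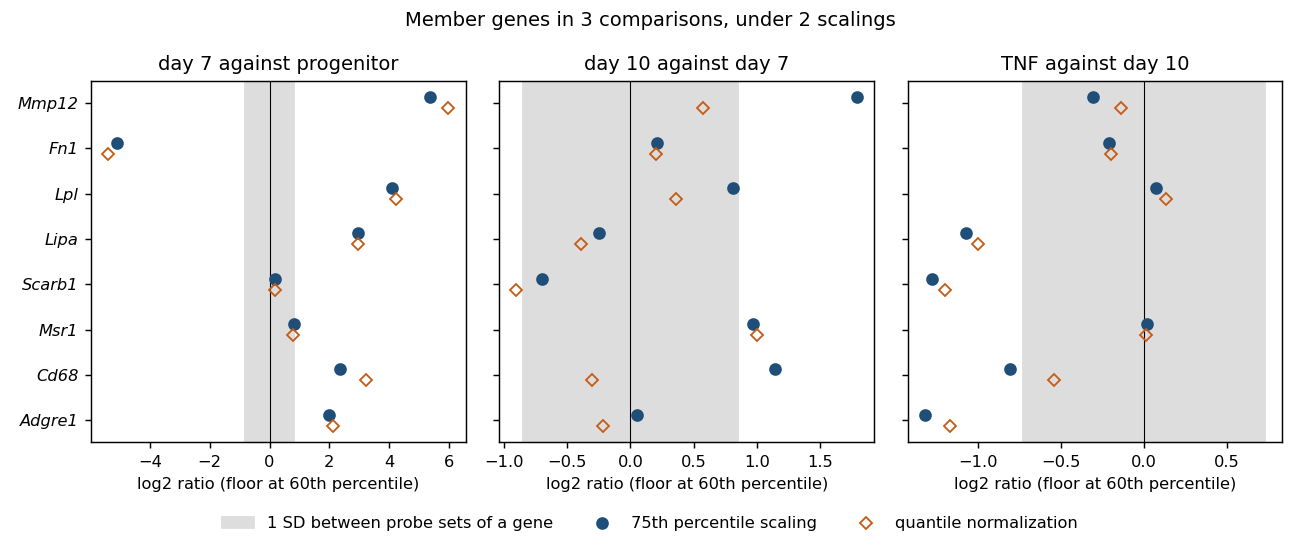
Log2 ratios of the member genes with the floor of 428 units (horizontal axes, 1 scale per panel) in 3 comparisons, after scaling to a common 75th percentile (filled circles) and after quantile normalization (open diamonds); the grey band is 1 SD of the disagreement between probe sets of one gene, and Cd36, under 428 units on every array, is left out. At day 7 Mmp12, Lpl, Lipa, Cd68 and Adgre1 lie right of the band and Fn1 left of it. With TNF Adgre1, Scarb1 and Lipa lie left of the band and Mmp12, Lpl, Msr1 and Fn1 inside, while Cd68 lies left of it as a circle (-0.81) and inside as a diamond (-0.54).

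TNF, a cytokine that matures dendritic cells, separated the 9 genes. Adgre1 was 2.50-fold lower than at day 10, Scarb1 2.42-fold and Lipa 2.10-fold. Fn1 was lower as well with the floor of 105 units, at a log2 ratio of -1.54, but from a level of 496 units. These 4 stood beside 0 higher genes, against 8.76% of all genes lower and 8.84% higher. With the floor of 428 units 3 were lower and 0 higher, where 5.15% and 4.71% of all genes were. At 3-fold 0 were lower, against 2.88% of all genes. Cd68 was 1.76-fold lower, a log2 ratio of -0.81, or -0.54 after quantile normalization. Mmp12 was 1.24-fold lower, Lpl 1.05-fold higher and Msr1 1.01-fold higher, each within the 1.66-fold disagreement between probe sets. The second Msr1 probe set was lower with TNF, at a log2 ratio of -0.55, also within that disagreement. The ratios of Adgre1, Scarb1 and Lipa, -1.32, -1.28 and -1.07, exceed 1 SD of that disagreement, 0.73, and fall short of 2 SD, 1.47. That of Cd68 exceeds 1 SD before quantile normalization and not after it. After quantile normalization Lipa was 1.99-fold lower and no longer counted, while Adgre1 and Scarb1 were 2.25-fold and 2.30-fold lower. The spiked controls were lower with TNF too, with a median of -0.50 and a range of -0.88 to -0.33. The ratio of Cd68 lies in that range, and those of Adgre1, Scarb1 and Lipa lie below it. How far the array contributes to these ratios was not tested.

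Granulocyte markers moved with the TNF comparison too. Of 13 measured, 9 were at least 2-fold lower with TNF than at day 10 and 0 higher, with a median log2 ratio of -2.17. Over all genes 8.76% were lower and 8.84% higher. With the higher floor, 7 of 10 were lower and 0 higher, beside 5.15% and 4.71% of all genes. Ngp, a granule protein of neutrophils, went from 27554 units at day 10 to 831 with TNF, and S100a8, a calcium-binding protein of neutrophils and monocytes, from 57731 to 7537; this pair was picked with its values in view. The part of granulocytes in the lower Adgre1, Scarb1 and Lipa was not tested.

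Other genes of lipid uptake, storage and efflux were read from a list of 51, of which 34 were measured and 29 lay above 105 units at day 7 or in the progenitor. Of these 12 were higher at day 7 and 1, the apolipoprotein gene Apoe, lower, with a median of 0.37, beside 13.4% and 11.9% of all genes. With the floor of 428 units 8 of 25 were higher and 1 lower, beside 10.5% and 9.72%. Lrp1, a large endocytic receptor for lipoproteins, was at 1868, 9644, 20670 and 11187 units from progenitor to TNF, 5.16-fold higher at day 7. Mgll, the monoglyceride lipase gene, was at 256, 4493, 11797 and 8856 units, but a second Mgll probe set gave a log2 ratio of -1.05 at day 7. The fatty acid carrier gene Fabp5 was at 198, 398, 4338 and 2810 units, so its high values were those of the 2 day 10 arrays.

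Further lipid genes were picked after their values were seen. Nr1h3, which encodes the oxysterol-sensing receptor LXRalpha, was at 116 units in the progenitor and 1417 at day 7. Abca1, the cholesterol efflux pump it controls, was at 25 and 1000 units, while a second Abca1 probe set read -119, 115, 1351 and 2386 units, with its high values at day 10 and with TNF. Apoe was at 1075, -254, 387 and -791 units, above 428 in the progenitor alone. Pparg, which encodes a lipid-activated nuclear receptor, was at 1396, 1552, 1092 and 311 units, at least 2.55-fold lower with TNF. With TNF the 31 list genes above 105 units had a median of -0.47, and 3 exceeded 2-fold in each direction, near the 8.84% and 8.76% of all genes.

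The list of other scavenger and phagocytic receptors held 18 measured genes. At day 7, 7 of the 14 above 105 units were higher and 1 was lower (median log2 ratio 0.86), or 4 of 11 and 0 with the floor of 428 units, beside 13.4% and 11.9%, or 10.5% and 9.72%, of all genes. Mrc1, the macrophage mannose receptor, was at 314, 7033, 9009 and 2714 units, at least 16.4-fold higher at day 7 and 3.32-fold lower with TNF. Mfge8, a secreted bridge between dying cells and phagocytes, was at 1416, 16100, 46313 and 44033 units and hardly differed with TNF. Itgb5, an integrin subunit, was at -691, 740, 3082 and -158 units, above 428 on the middle 2 arrays only. With TNF 5 of 16 were lower and 1, the oxidised lipoprotein receptor gene Olr1, higher, beside 8.76% and 8.84% of all genes. With the floor of 428 units 3 of 13 were lower and 1 higher, beside 5.15% and 4.71%.

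Matrix genes were followed in a list of proteases and inhibitors and a list of matrix proteins with the receptors that bind fibronectin. At day 7 the proteases had 8 of 19 higher and 1 lower (median 0.55), beside 13.4% and 11.9% of all genes. With the floor of 428 units they had 4 of 12 higher and 0 lower, where 10.5% and 9.72% of all genes were. Ctss, a cathepsin that also cleaves elastin, was at 4685, 24027, 85334 and 72882 units, and Plaur, the urokinase receptor, at 2407, 5968, 8243 and 5868. Mmp8, the neutrophil collagenase, was at 12689, 10495, 16640 and 893 units, 18.6-fold lower with TNF where Mmp12 was 1.24-fold lower. Among matrix proteins and receptors 8 of 28 were higher at day 7 and 4 lower (median 0.09), beside 13.4% and 11.9% of all genes, the lower share being near that of all genes. With the floor of 428 units 5 of 12 were higher and 2 lower, beside 10.5% and 9.72%. Itgb1, a subunit of fibronectin receptors, was at 5985, 13684, 14204 and 25578 units by a probe set whose suffix marks it as matching a family of genes. Tgfbi, a secreted matrix protein, was at 7846, 16350, 20036 and 22044, and Itgb7, which pairs with the alpha4 subunit, at 4015, 1682, 1789 and 782. A second, dimmer Itgb7 probe set read 371, 340, 168 and 723 units and did not follow, whereas second probe sets of Itgb1 and Tgfbi gave 1.66 and 1.54 at day 7.

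Of the macrophage markers other than Adgre1 and Cd68, 9 lay above 105 units at day 7 or in the progenitor. Of these 4 were higher at day 7 and 3 lower, beside 13.4% and 11.9% of all genes. With the floor of 428 units 4 of 8 were higher and 1, C1qc, was lower, beside 10.5% and 9.72% of all genes. Csf1r, the receptor for macrophage colony-stimulating factor, was at 983, 7257, 11354 and 12111 units, but a second, dim probe set, at 266, 110, 344 and 334 units, did not follow. Marco, a class A scavenger receptor like Msr1, was at 135, 931, 2341 and 1675. The 3 lower ones were the chains of complement C1q, with C1qc at 1679 units in the progenitor and -230, -20 and 67 later. C1qa and C1qb were at 487 and 359 units in the progenitor, and a second C1qb probe set read 117, 153, 115 and 15.

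**Figure D3:**
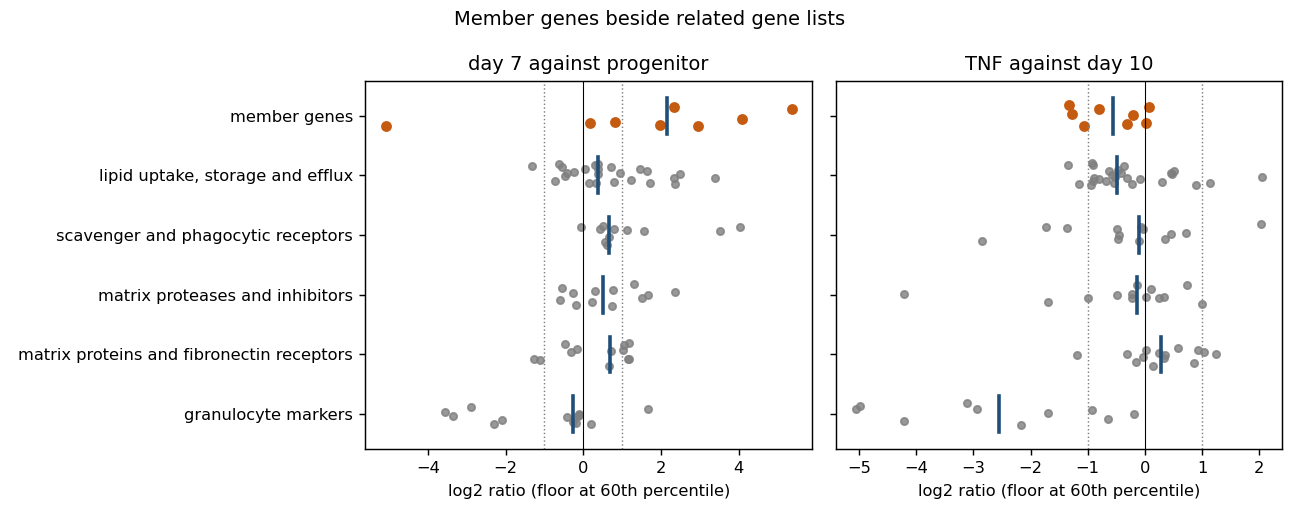
Log2 ratios with the floor of 428 units of the member genes (orange) and of the non-member genes of 5 lists (grey), 1 point per gene above 428 units on either array, for day 7 against progenitor and TNF against day 10; blue bars are medians, dotted lines 2-fold, and Mmp8 and Mmp9 stand in both the protease and the granulocyte list. The member genes have a median of 2.16 at day 7 and -0.56 with TNF, and the granulocyte markers -0.27 and -2.55.

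Profiles over the 4 arrays were compared with those of 4736 other genes by the root mean square difference of centred log2 levels, with the floor of 428 units. Nearest to Mmp12 were the class II presentation genes H2-DMa (0.23) and H2-Ab1 (0.25) and the membrane protein gene Plet1 (0.26). Nearest to Lpl were Gpr137b-ps (0.24), Mfge8 (0.28) and Mgll (0.30). Cd68 lay within 0.04 of Lrp1 and 0.09 of Fcgrt, an Fc receptor that recycles antibody, and of Car4, a carbonic anhydrase. That likeness depends on the scaling. After quantile normalization the log2 ratio between day 10 and day 7 was -0.30 for Cd68, 0.63 for Lrp1, 0.85 for Fcgrt and 1.15 for Car4. Lipa lay nearest to Epx, the eosinophil peroxidase gene (0.07), and Syngr1 (0.09). Scarb1 lay nearest to Flot2 (0.05), Capn1 (0.06) and Pparg (0.08), and Adgre1 to Cd93 and Lmbr1l (both 0.14) and Emp1 (0.20), where a second Lmbr1l probe set gave -0.56 at day 7.

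Msr1 lay nearest to Mcrip1 (0.02), Id2 (0.03) and Gpr162 (0.06). That likeness depends on the floor, since the progenitor value of Msr1, 198 units, was raised to it. With the lower floor Msr1 had a log2 ratio of 1.94 at day 7, against 0.84 for Mcrip1, 0.77 for Id2 and 0.91 for Gpr162. After quantile normalization the ratio between day 10 and day 7 was 1.0 for Msr1, 0.87 for Mcrip1, 0.35 for Id2 and 0.85 for Gpr162. Fn1 had no neighbour as near as those of Msr1. Ces2g, a carboxylesterase gene, differed by 0.41, Mtm1 by 0.65 and Gpx3, a secreted glutathione peroxidase, by 0.70. A second Mtm1 probe set had the opposite sign at day 7 (1.03). With 4 points and 1 array in each group, such likeness is a description of these arrays.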

How the data were processed

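The authors deposited linear intensities of 12654 probe sets on each of 4 arrays. How they were computed from the scans is not stated in the labels. The deposited values show subtraction (values below 0) and arrays matched in brightness (means of the central probe sets of 998.8 to 999.0 units). Gene names came from the platform annotation, with symbols updated by Entrez number from RefSeq (10279 of 10298 with 1 symbol). The 75th percentiles of the arrays were made equal (factors 0.962 to 1.05), and values were floored and converted to log2. The probe set with the highest mean stood for its gene. Genes were counted at 2-fold. Alternatives were the values as deposited, quantile normalization, the other floor, a 3-fold rule, the mean of all probe sets, and leaving out shared probe sets. Python 3.11.15, numpy 2.4.6 and pandas 2.3.3 were used, and the ratio step was tested on simulated data with 200 changed genes.

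The members and lists were chosen with earlier results of these data known. Named from each list were up to 3 genes with the largest log2 ratio in any comparison, and for each member ranging over 2-fold the 3 nearest profiles. Other genes are said to be chosen after their values were seen; the marker genes named as under a floor were listed for that check. Several listed genes belong to more than 1 list. The number of arrays, 1 in each group, limits the precision. No test was made. Coordinates are those of the RefSeq promoter table.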

Additional observations from a re-analysis of the deposited data

How the results depend on the processing

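The values as deposited left all 36 log2 ratios of the 9 genes in 4 comparisons within 1 SD of the probe disagreement of those reported. The 2 genes counted as higher at day 10 than at day 7, Mmp12 and Cd68, became 1 after quantile normalization (Msr1 alone) and 1 under a 3-fold rule, with the mean of all probe sets or without shared probe sets (Mmp12 each time). Both Mmp12 probe sets carry such a suffix, so the last alternative kept the same one for Mmp12 and is no check of it. The direction of Cd68 between these days turned to -0.30 after quantile normalization. The 4 genes lower with TNF became 0 under a 3-fold rule, and 3 after quantile normalization, without Lipa (1.99-fold). Counts for day 7 and day 10 against progenitor stayed within 1.5 times under every alternative run. Cd68 depends on its probe set: without the shared one its log2 ratio was 0.00 in every comparison, since the remaining probe set is dark. Averaged over both probe sets, Lpl fell from 4.10 to 2.05 at day 7. Msr1 at day 7 moved from 0.82 to 1.94 with the floor of 105 units. With 1 array in each group, no alternative could leave out a replicate. No paired analysis was possible because each group has 1 array.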

Other observations

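Vwf, which encodes von Willebrand factor and was listed as a megakaryocyte marker, was at 399 units in the progenitor, 7080 at day 7, 13758 at day 10 and 5878 with TNF. It was at least 16.5-fold higher at day 7, although a second Vwf probe set read -223, 22, 93 and -264 units. The platelet genes Pf4 and Gp5 stayed under 105 units on all 4 arrays. Gp9, a further platelet gene of the list, was at 377, 948, 92 and -248 units, at least 2.22-fold higher at day 7. Of 6 measured adipocyte markers, 3 lay above 428 units on every array, and Adipoq, Retn and Cidec lay under it on every array. Fabp4, a fatty acid carrier of adipocytes and macrophages, was at 437, 2196, 3415 and 2755 units. Lep, the leptin gene, was at 1249, 1166, 981 and 1111 units, while a second Lep probe set read -975, -947, -624 and -3. Lipe, the hormone-sensitive lipase gene, was at 531, 870, 1462 and 2003.

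With TNF, lipoprotein receptor genes took different courses, and these were chosen after their values were seen. Vldlr was at 135, 24, -112 and 1774 units and Olr1 at 237, 628, 591 and 2419, at least 4.14-fold and 4.09-fold higher with TNF than at day 10. Scarb1 and Lrp1 were 2.42-fold and 1.85-fold lower in the same comparison. 2 other Vldlr probe sets gave log2 ratios of 0.00 with TNF, the value of a gene at the floor. The Vldlr and Olr1 probe sets carry the suffixes _r_at and _f_at, which mark probe sets chosen under relaxed rules or shared within a family.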
